A study of Homo sapiens with 4 samples.

Results

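The peroxiredoxins and the thioredoxin system were followed as 10 genes among the 16692 in the deposited expression table: the peroxiredoxins PRDX1 to PRDX6, the thioredoxins TXN and TXN2, and the thioredoxin reductases TXNRD1 and TXNRD2. Each was found by its symbol, and each symbol named 1 gene. The cells were SNU-668, an established human gastric cancer line, whose resistance to erastin, an inhibitor of cystine import, is stated in the series text, although the library names carry RLS3 instead, a mismatch that the labels do not settle. One condition carried an shRNA against ALKBH3, a demethylase of alkylated nucleic acids, with the genotype label ALKBH3 knockdown, and the other a control shRNA with the genotype label WT. Each condition had 1 library of ribosome footprints, the mRNA pieces that translating ribosomes protect, and 1 RNA library. Whether the cells were a clone or a pool is not stated. Without replicates, every difference is between 2 single libraries, each interval is a 95% interval that covers counting error only, and no p-value is given.

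The footprint libraries held 3795680 counts (control) and 3742513 counts (knockdown-labelled), and the RNA libraries 554075 and 689375. ALKBH3, the targeted gene, had 14 footprints in the control library and 22 in the library labelled knockdown, and 0 RNA counts in both. Its footprint log2 ratio, knockdown-labelled over control, was 0.59, with an interval of -0.37 to 1.54 that holds 0. These few counts do not bear out the label, and they bound little. Directions below refer to the 2 libraries by their labels alone. Of 5 epithelial markers, KRT18 alone reached 100 footprints (462 and 538 footprints in control and knockdown-labelled cells). KRT8 had 17 and 15 footprints beside 208 and 511 RNA counts. KRT19 had 4 and 3 footprints and EPCAM 0 and 2, with 0 RNA counts for both genes, and CDH1 was not analysed here. Among markers of other cells, COL1A1 had 1001 and 663 footprints, CD68 762 and 745, VWF 13 and 15, and PTPRC 0 in both. DCN, a fibroblast marker like COL1A1, and PECAM1, an endothelial marker like VWF, were not analysed here. What part these have in the results was not tested.

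Peroxiredoxins are abundant enzymes that reduce hydrogen peroxide and organic peroxides through a reactive cysteine. Most of them are returned to the reduced state by thioredoxin, a small protein with a redox-active pair of cysteines, and thioredoxin is in turn reduced by thioredoxin reductase, a selenoprotein that draws on NADPH. The cytosol and the mitochondria each have their own thioredoxin and reductase. The system runs beside the glutathione system, whose cysteine supply erastin limits.

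TXNRD1 had the highest footprint ratio of the 10 genes and is a textbook target of NRF2, a transcription factor that binds antioxidant response elements. Its promoter windows were chosen for display after that ratio was seen, as was that of PRDX2, the gene with the lowest ratio. Others of the 10 genes, all with lower ratios, may be NRF2 targets as well, which was not examined. Whether NRF2 had a part in any ratio was not tested. The RefSeq table (GRCh38.p14) held 11 windows of 300 bases, 250 before and 50 after a start site, for 7 of the 10 genes. PRDX1, PRDX6 and TXN2 had no window. The core motif TGACNNNGC, searched on both strands (GCNNNGTCA on the other), is in capitals, and no other motif was searched. The first TXNRD1 window is chr12:104215529-104215828 on the plus strand, the second chr12:104286782-104287081 on the plus strand, and the PRDX2 window chr19:12801751-12802050 on the minus strand.
TXNRD1 first window: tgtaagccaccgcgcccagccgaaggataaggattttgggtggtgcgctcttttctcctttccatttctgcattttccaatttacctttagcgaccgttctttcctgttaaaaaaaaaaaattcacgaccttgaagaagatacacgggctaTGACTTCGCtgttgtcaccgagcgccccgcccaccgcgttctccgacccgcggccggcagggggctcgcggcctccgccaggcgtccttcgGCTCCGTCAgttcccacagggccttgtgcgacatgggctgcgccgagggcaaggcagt
TXNRD1 second window: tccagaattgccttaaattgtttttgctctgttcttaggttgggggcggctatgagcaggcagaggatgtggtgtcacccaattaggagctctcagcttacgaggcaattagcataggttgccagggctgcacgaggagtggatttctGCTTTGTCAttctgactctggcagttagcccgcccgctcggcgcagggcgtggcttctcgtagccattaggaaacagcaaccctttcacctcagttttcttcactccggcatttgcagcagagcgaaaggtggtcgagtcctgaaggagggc
PRDX2 window: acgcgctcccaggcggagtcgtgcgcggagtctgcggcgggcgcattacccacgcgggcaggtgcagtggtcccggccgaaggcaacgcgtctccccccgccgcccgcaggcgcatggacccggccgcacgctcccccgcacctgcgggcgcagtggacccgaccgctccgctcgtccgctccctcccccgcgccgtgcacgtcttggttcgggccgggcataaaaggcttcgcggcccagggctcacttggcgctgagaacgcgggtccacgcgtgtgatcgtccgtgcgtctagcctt

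The first TXNRD1 window held 2 matches, TGACTTCGC and, on the other strand, GCTCCGTCA, and the second held 1, GCTTTGTCA. The other 9 windows, of PRDX2, PRDX3, PRDX4, PRDX5, TXN and TXNRD2, held none of these letters. Thus 2 of the 11 windows held a match, beside 13.3% of all 35116 windows of the table. A match is a description of the letters and not a binding site, and footprints do not measure transcription.

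Levels were compared per length, as the authors' deposited RPKM (reads per kilobase and per 1000000 library reads). The gene lengths behind the RPKM, and whether they are coding lengths, were not examined. Level ratios between genes, and the order of the levels, carry any error in these lengths. TXN, the cytosolic thioredoxin, had the highest footprint level of the 10 genes, at 2751 RPKM (control library) and 2793 RPKM (knockdown-labelled library). PRDX1, the main cytosolic peroxiredoxin by these levels, followed at 1311 and 1253 RPKM. Among the 7050 genes with at least 100 footprints over both libraries, 99.8% had a lower control RPKM than TXN and 99.3% a lower one than PRDX1. Both genes were thus near the top of the footprint levels in either library.

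PRDX6, which reduces phospholipid peroxides and takes its electrons from glutathione, was at 480 RPKM in the control library and 575 RPKM in the knockdown-labelled one. PRDX4, the peroxiredoxin of the endoplasmic reticulum, was at 379 and 358 RPKM, and PRDX5, found in mitochondria, peroxisomes and cytosol, at 289 and 261. PRDX3, the mitochondrial peroxiredoxin, was at 223 and 210 RPKM. PRDX2, a cytosolic relative of PRDX1, was the lowest peroxiredoxin at 127 and 100 RPKM, yet 86.9% of measured genes lay below its control level.

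TXNRD1, the cytosolic reductase, was at 257 RPKM in the control library and 347 RPKM in the knockdown-labelled one. The mitochondrial pair was far lower. TXN2 was at 19.5 and 19.0 RPKM, from 28 and 26 footprints, and TXNRD2 at 17.4 and 16.02 RPKM. By the deposited RPKM, TXN stood 141-fold above TXN2 in the control library (interval 97.5 to 205), and TXNRD1 14.8-fold above TXNRD2 (12.8 to 17.1). These intervals do not cover error in the gene lengths.

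**Figure D1:**
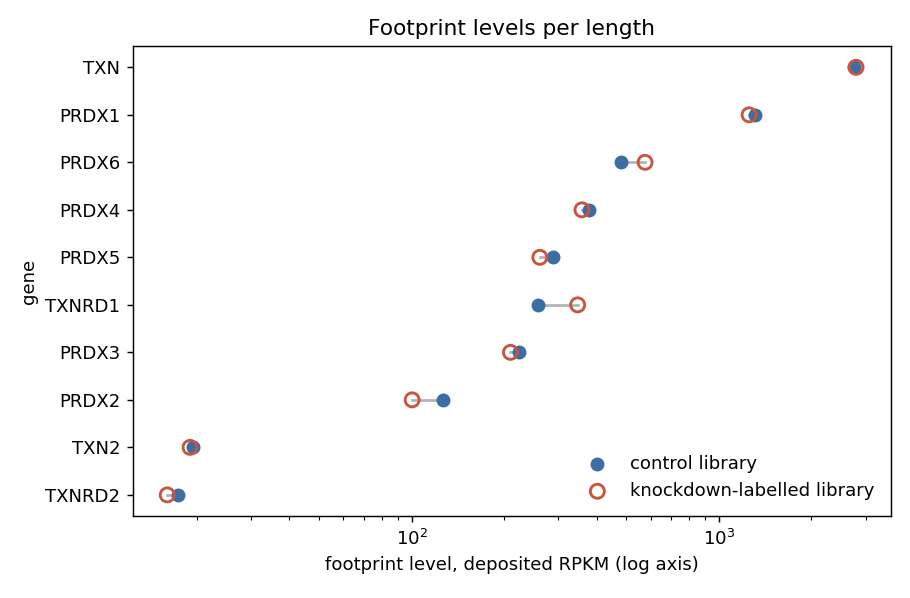
Footprint level of each of the 10 genes as deposited RPKM on a log axis, with the control library as filled and the knockdown-labelled library as open circles, 1 library each. TXN and PRDX1 lie at 1253 RPKM or higher and TXN2 and TXNRD2 at 19.5 RPKM or lower in both libraries, and the open circle lies to the right for TXNRD1, PRDX6 and, by little, TXN.

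The order of the levels was the same in both libraries but for TXNRD1, which came just after PRDX5 in the control library and just ahead of it in the knockdown-labelled one. Of neighbours in that order, TXN2 and TXNRD2 could not be told apart in either library (ratio 1.12, interval 0.753 to 1.66, in the control, and 1.19, 0.785 to 1.79, in the knockdown-labelled library). PRDX4 and TXNRD1 could not be told apart in the knockdown-labelled library (ratio 1.03, interval 0.983 to 1.08). The other neighbours differed beyond counting error, which leaves out error in the gene lengths. TXN2 and TXNRD2 were near each other per length only, at 28 and 194 control footprints. The order is thus that of the deposited RPKM.

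The first comparison asked whether footprints on these genes differed between the 2 footprint libraries. Footprints on TXNRD1 and PRDX6 were higher in the knockdown-labelled library, and those on PRDX1, PRDX2, PRDX3, PRDX4, PRDX5 and TXN were lower, though TXN changed direction and PRDX3 came to hold 0 under another library scaling. All of these differences were small, from 27.0% lower for PRDX2 to 24.1% higher for TXNRD1. TXNRD2 had an interval that held 0, and TXN2 did not reach 100 footprints. Ratios below are log2 values, knockdown-labelled over control, after TMM scaling of the library totals.

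Of the reductases, TXNRD1 (ENSG00000198431, hg19 chromosome 12, 104609557 to 104744061, plus strand) had 3286 footprints in the control library and 4213 in the knockdown-labelled one. The knockdown-labelled library was the higher, with a log2 ratio of 0.31 (interval 0.25 to 0.38). TXNRD2 (chromosome 22, 19863045 to 19929333, minus strand) had 194 and 170 footprints. Its log2 ratio was -0.24 (-0.53 to 0.060), so no difference was detectable at this depth. The reductases differed from each other, with TXNRD2 minus TXNRD1 at -0.55 (-0.85 to -0.24), a difference in which library scaling cancels. Per length, TXNRD1 stood 14.8-fold above TXNRD2 in the control library and 21.7-fold (18.6 to 25.2) in the knockdown-labelled library.

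Of the thioredoxins, TXN (ENSG00000136810, chromosome 9, 113006091 to 113018920, minus strand) had 4980 and 4809 footprints. Its log2 ratio was -0.097 (-0.15 to -0.040) after TMM scaling, but its direction depended on the scaling: it was -0.030 (-0.087 to 0.027) with plain totals and 0.022 (-0.035 to 0.079) with the deposited RPKM. TXN2, at 28 and 26 footprints, had a log2 ratio of -0.15 with an interval from -0.91 to 0.61, which bounds little. The level of TXN over that of TXNRD1, the enzyme that reduces it, was 10.7 per length in the control (10.2 to 11.2) and 8.05 in the knockdown-labelled library (7.73 to 8.39). These intervals do not overlap, and this ratio too is free of library scaling.

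Of the peroxiredoxins, PRDX6 (ENSG00000117592, chromosome 1, 173446405 to 173457946, plus strand) had 2069 footprints in the control library and 2359 in the knockdown-labelled one. It was the 1 peroxiredoxin that was higher in the knockdown-labelled library, at a log2 ratio of 0.14 (0.057 to 0.23). PRDX1 (ENSG00000117450, chromosome 1, 45976708 to 45987609, minus strand) went the other way, from 4968 to 4516 footprints (-0.18, -0.24 to -0.13). PRDX6 minus PRDX1 was 0.33 (0.22 to 0.43).

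PRDX2 (ENSG00000167815, chromosome 19, 12907634 to 12912673, minus strand) had 581 footprints in the control library and 438 in the knockdown-labelled one, the lowest ratio of the 10 genes at -0.45 (-0.63 to -0.28). It lay below its cytosolic relative PRDX1 as well, with PRDX2 minus PRDX1 at -0.27 (-0.46 to -0.082). PRDX3 had 1111 and 995 footprints (-0.21, -0.33 to -0.082), PRDX4 2858 and 2572 (-0.20, -0.28 to -0.12), and PRDX5 1186 and 1020 (-0.26, -0.38 to -0.14). PRDX3, PRDX4 and PRDX5 could not be told apart from PRDX1 by these ratios, with PRDX3 minus PRDX1 at -0.021 (-0.16 to 0.11), PRDX4 minus PRDX1 at -0.014 (-0.11 to 0.082) and PRDX5 minus PRDX1 at -0.080 (-0.21 to 0.054). PRDX1 to PRDX5, which lie in the cytosol, the mitochondria and the endoplasmic reticulum, were thus all lower in the knockdown-labelled library, and with the deposited RPKM all but PRDX3, at -0.087 (-0.21 to 0.037), kept intervals below 0. Peroxiredoxin and thioredoxin genes have processed copies in the genome, for which 0 rows were found among those analysed here, so how reads shared with such copies were counted is uncertain.

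**Figure D2:**
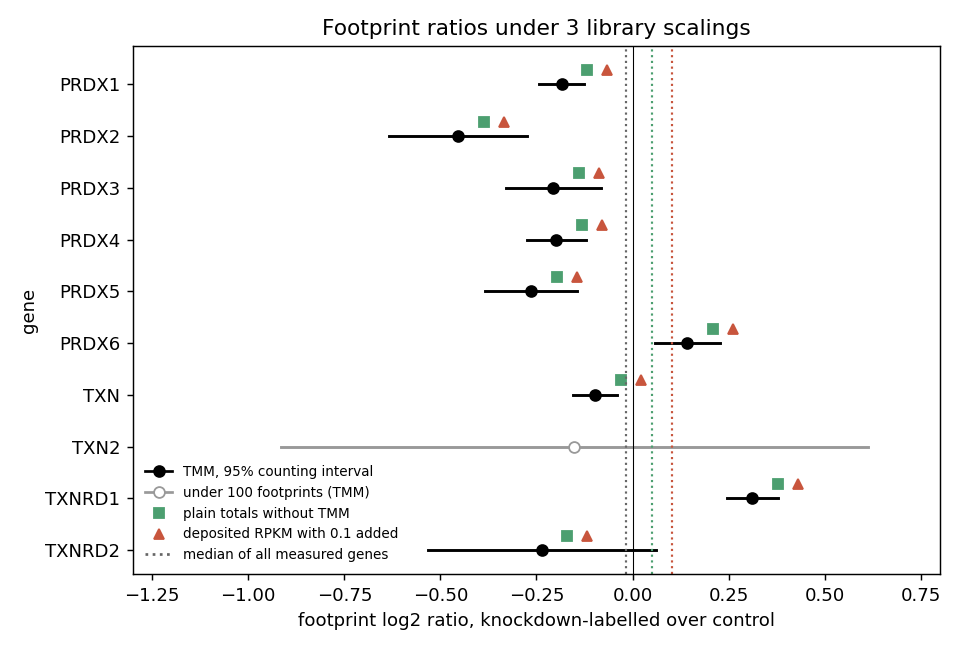
Footprint log2 ratio, knockdown-labelled over control, for each gene, with TMM scaling (circles, 95% counting intervals; open grey for TXN2, under 100 footprints), plain totals (squares) and deposited RPKM (triangles), and dotted lines at the median of all measured genes under each scaling. Under each scaling TXNRD1 and PRDX6 lie to the right of that scaling's own median and the other plotted values to its left, and TXN lies on both sides of 0 depending on the scaling.

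Of the 9 genes with at least 100 footprints, 2 had intervals above 0, 6 had intervals below 0 and 1 held 0. Over all 7050 genes tested, 18.2% had intervals above 0 and 22.3% below 0. With the deposited RPKM the 9 genes split into 2 above, 4 below and 3 holding 0, and all genes into 29.5% above and 13.1% below, so the scaling moves both splits. Since deep genes have narrow intervals, the 742 genes with at least 2000 footprints over both libraries, a limit chosen after seeing the data, are the closer background: 26.0% lay above 0 and 50.5% below. Of the 7 system genes at that depth, 2 lay above and 5 below. The log2 ratios of those 742 genes spread with a standard deviation of 0.33, while the median counting error was 0.049, so an interval that leaves out 0 was common at this depth and does not measure the spread between replicate libraries. None of the 9 genes was 1.5-fold apart or more, and over all genes 4.89% were higher and 4.62% lower by that much.

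The median log2 ratio of the 9 genes was -0.20, beside -0.017 over all 7050. No median was computed over the 742 deeper genes, of which 26.0% lay above 0 and 50.5% below, so the gap is not shown to be particular to the system. Scaling by the deposited RPKM moved the median of all genes to 0.10 and that of the 9 genes to -0.080. The gap stayed at -0.18, which is no check on it, since a library scaling moves all genes nearly alike. Relative to the median of all genes, TXNRD1 and PRDX6 were the 2 genes that lay above it and the other 7 lay below it, under each of the 9 settings run (with TXN2 also below where a lower filter let it in). Settings that change the scaling alone could hardly alter this order. Of 45 pairs of the 10 genes, 22 differed beyond counting error. These were 14 of the 16 pairs that set TXNRD1 or PRDX6 against another gene, 7 of the 28 pairs among the other 8 genes, and TXNRD1 against PRDX6 (PRDX6 minus TXNRD1, -0.17, -0.28 to -0.062). TXNRD1 and PRDX6 were set apart because their ratios were the highest, so this split follows from that choice. The share of such pairs over all genes was not computed.

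**Figure D3:**
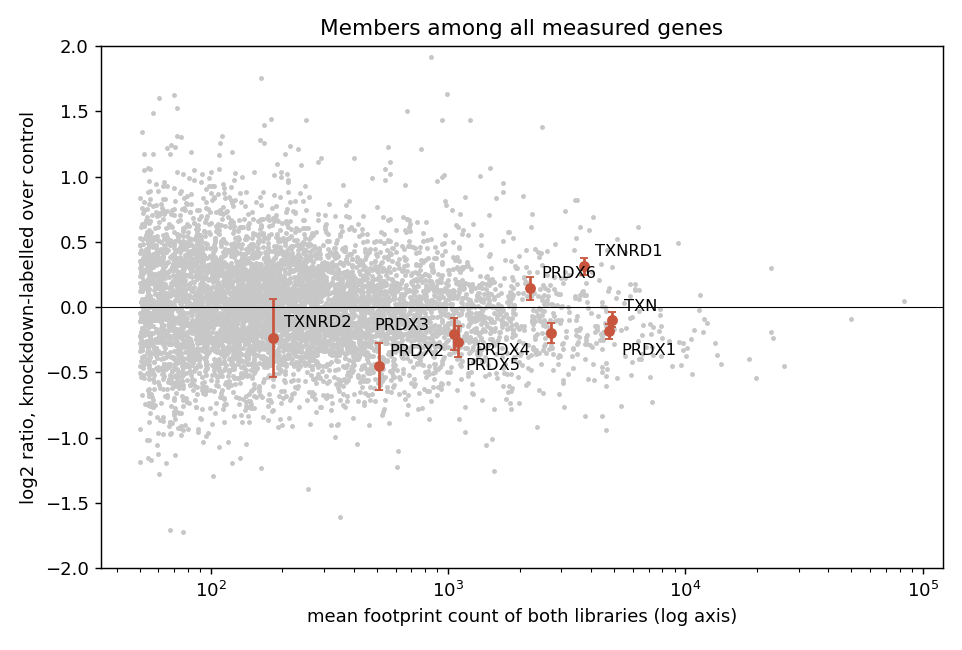
Footprint log2 ratio against mean footprint count (log axis) for the 7050 genes with at least 100 footprints (grey; 4 lie beyond the axis) and for 9 genes of the system (red, 95% counting intervals). The 9 red points lie within the grey cloud, TXNRD1 and PRDX6 above 0 and the others below.

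The 10 genes together took 0.560% of the control footprints (21261 counts, Clopper-Pearson interval 0.553% to 0.568%) and 0.564% of the knockdown-labelled footprints (21118 counts, 0.557% to 0.572%). The intervals of the summed shares overlap. The 6 peroxiredoxins took 0.337% (0.331% to 0.342%) of the control and 0.318% (0.312% to 0.324%) of the knockdown-labelled footprints. Per length, PRDX1 held 46.7% of the summed peroxiredoxin RPKM in the control library and 45.4% in the other, PRDX6 17.1% and 20.8%, and PRDX2 4.51% and 3.64%.

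Genes linked to the system were described in 3 lists. Over all 7050 genes tested, 18.2% had intervals above 0 and 22.3% below, and the counts in these lists were not tested against those shares. Of 20 thioredoxin-linked genes, which hold regulators, relatives and clients of thioredoxin, 10 reached 100 footprints, with 3 intervals above 0, 3 below and 4 holding 0, and a median log2 ratio of -0.075 (0.044 with the deposited RPKM). SESN2, a sestrin induced by stress, had 36 and 108 footprints and was the furthest from 0 of them, at 1.53 (0.98 to 2.07). TXNIP, which binds and inhibits thioredoxin, had 1274 and 1494 footprints (0.18, 0.075 to 0.29). TXNRD3, the third thioredoxin reductase and like the other two a selenoprotein, had 35 and 65 footprints (0.84, 0.25 to 1.43).

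SRXN1, the sulfiredoxin that repairs overoxidised peroxiredoxins, had 55 and 45 footprints (-0.33, -0.90 to 0.23), too few to show a difference of this size. RRM2, a subunit of ribonucleotide reductase, an enzyme that thioredoxin can reduce, had 1331 and 936 footprints (-0.55, -0.67 to -0.43). NXN, nucleoredoxin, had 328 and 238 (-0.51, -0.75 to -0.27). Both were thus lower in the knockdown-labelled library.

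The glutaredoxins and glutathione reductase, the parallel path, had 5 of 5 genes measured, with 1 interval above 0, 1 below and 3 holding 0, and a median of 0.046. GSR, glutathione reductase, had 242 and 250 footprints, a log2 ratio of 0.00015 (-0.25 to 0.25). GLRX5, the mitochondrial glutaredoxin of iron-sulfur cluster assembly, had 86 and 48 footprints (-0.88, -1.39 to -0.37). Of 4 superoxide and hydrogen peroxide enzymes, 3 were measured and 1 interval lay below 0, with a median of -0.0046 (0.11 with the deposited RPKM). SOD1, the cytosolic superoxide dismutase, had 7161 and 5611 footprints (-0.40, -0.45 to -0.35). CAT, catalase, had 506 and 521 (-0.0046, -0.18 to 0.17), and SOD2, the mitochondrial superoxide dismutase, 51 and 63 (0.26, -0.27 to 0.79).

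**Figure D4:**
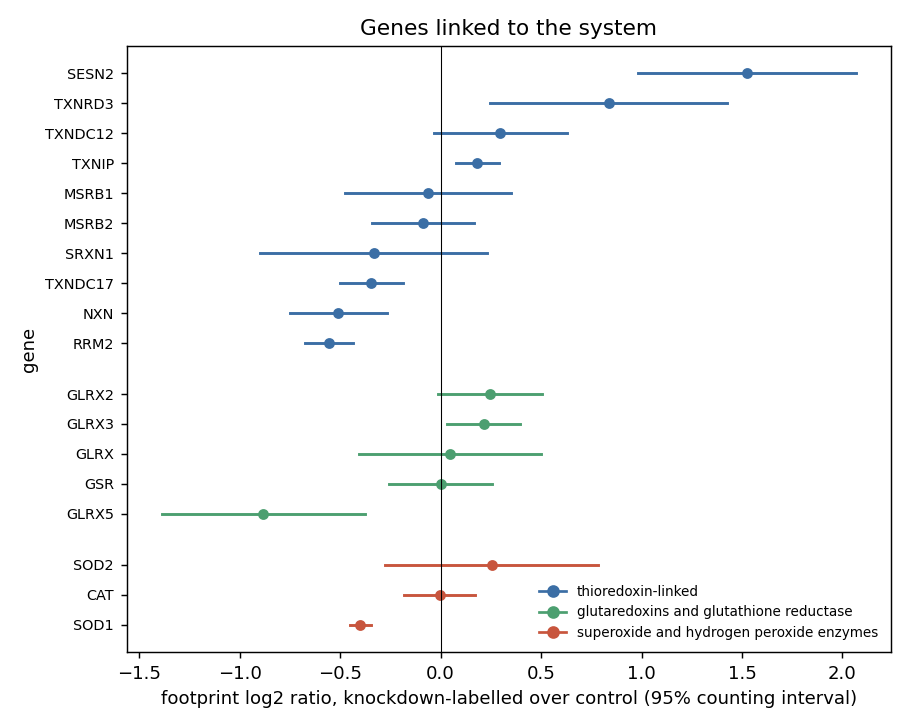
Footprint log2 ratio, knockdown-labelled over control, with 95% counting intervals, for the 18 measured genes of the 3 linked lists, coloured by list. SESN2 and TXNRD3 lie furthest to the right, GLRX5 furthest to the left, and GSR and CAT at 0.

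The second comparison, of RNA, and the third, of footprints over RNA, gave no ratio for any of the 10 genes, since none reached 100 RNA counts. PRDX1 had the most, with 19 RNA counts in each library beside its 4968 and 4516 footprints. TXN had 8 RNA counts in the control library and 1 in the knockdown-labelled one, PRDX5 1 and 12, TXNRD1 2 and 9, TXNRD2 0 and 8, and PRDX6 3 and 5. PRDX2 had 2 and 0, PRDX4 0 and 2, and PRDX3 and TXN2 0 in both. A count of 0 allows up to 3 counts, or 5.65 counts per 1000000 of the scaled total for control RNA and 4.17 for knockdown-labelled RNA. Such counts are not particular to these genes: of 7044 protein-coding genes that reached 100 footprints, 94.6% stayed under 100 RNA counts.

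Rows on the opposite strand of PRDX1 and PRDX2 held RNA counts. CTD-2659N19.10, an antisense-biotype row (chromosome 19, 12907637 to 12912663, plus strand) that covers 99.7% of the PRDX2 span, had 307 RNA counts in the control library and 445 in the knockdown-labelled one and 0 footprints in both, while PRDX2 had 2 and 0 RNA counts. Its RNA log2 ratio was 0.097 (-0.11 to 0.31), an interval that holds 0. MMACHC, which shares 32 bases with the end of PRDX1, had 53 and 78 RNA counts. On the same strand, EID3 inside TXNRD1 had 0 RNA counts and 1 and 6 footprints. Strand-keeping and strand counting are not stated for these libraries, so RNA of PRDX2 and of its antisense row cannot be told apart.

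**Figure D5:**
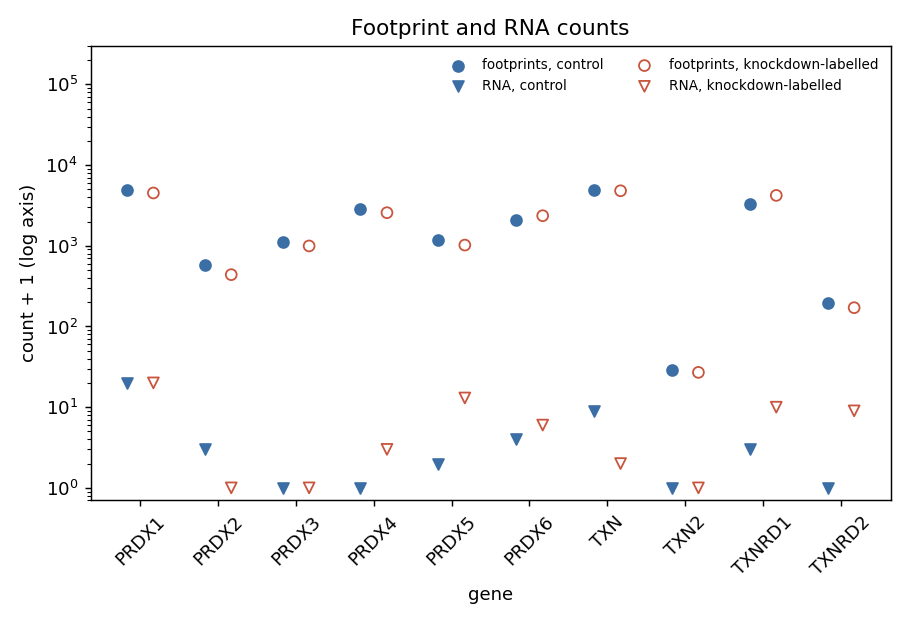
Footprint counts (circles) and RNA counts (triangles) of each gene plus 1, on a log axis, for the control (filled blue) and knockdown-labelled (open red) libraries, 1 each. RNA counts lie at 19 or fewer for every gene, while footprint counts reach 4980.

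The authors' deposited table also gives translational efficiency, footprint RPKM over RNA RPKM. For TXN the authors' deposited table gives 6176 for control and 62453 for knockdown-labelled cells, which rest on 8 and 1 RNA counts. For TXNRD1 the authors' deposited table gives 13530 and 5045, from 2 and 9 RNA counts, and for PRDX1 1615 and 1918, from 19 and 19. PRDX3 and TXN2 are listed at 0 in both conditions of the authors' deposited table, where the RNA count is 0. Apart from PRDX1, each of these ratios rests on at most 12 RNA counts per condition.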

How the data were processed

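Ribosome footprints and RNA were measured in 4 libraries, 1 in each of 4 groups taken from the titles and genotype labels. Per the submitters' processing notes, FastQC, cutadapt, Bowtie and STAR were used with the hg19 genome. Roles, versions, the counter and the treatment of multi-mapping reads are not stated in the notes, labels or headers. The deposited values are whole-number read counts per gene, RPKM computed by the authors, and a ratio of footprint RPKM over RNA RPKM, which was checked against the deposited RPKM and is listed at 0 where the RNA count is 0.

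Each log2 ratio sets the knockdown-labelled against the control library, with 0.5 added to every count and library totals scaled by TMM over all 16692 genes (edgeR 4.0.16, R 4.3.3). TMM factors were 0.977 and 1.02 for footprints. Intervals (95%) come from counting error. No molecular identifiers are stated, so PCR copies may be counted more than once, and intervals and floors reflect counting error alone. Genes needed 100 reads over both libraries of an assay. With 4 libraries in 4 groups no model with replicate error could be fitted. The procedure was tested on simulated counts that carried counting error alone, which is no check on the spread between replicate libraries.

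All 10 genes were named, with 7 set genes of the linked lists. Of the others with at least 100 footprints, the 4 whose interval bound lay furthest from 0 were named (RRM2, GLRX5, NXN and TXNRD3). MAP3K5, with 16 and 47 footprints, had a bound further out (0.67) but did not reach 100. The members and lists were chosen with earlier results of these data known. Alternatives were plain totals, median-of-ratios size factors (DESeq2 1.42.0), deposited RPKM with 0.1 or 1 added, a prior count of 5, filters of 20 and 1 reads, protein-coding genes alone, and 1.5-fold in place of 2-fold. Of the rows that overlap one of the 10 genes, 1 is not reported here.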

Additional observations from a re-analysis of the deposited data

How the results depend on the processing

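With 1 library in each group, no replicate could be left out. No paired analysis was possible because each group holds 1 library. The log2 ratios of PRDX1, PRDX2, PRDX4, PRDX5, PRDX6 and TXNRD1 kept their direction, with intervals off 0, under the alternatives for scaling, values, prior count and gene set. PRDX6 ran from 0.14 to 0.26 and TXNRD1 from 0.31 to 0.43. TXNRD2 kept its direction, with an interval that held 0 in each. The filters of 20 and 1 reads cannot change a gene's own ratio and are no check on it. TXN was at -0.030 with plain totals, with an interval that held 0, and at 0.022 with the deposited RPKM, whether 0.1 or 1 was added. PRDX3 was at -0.087 with the deposited RPKM plus 0.1 and at -0.086 with 1 added, with intervals that held 0. The deposited RPKM moved the median of the 9 genes from -0.20 to -0.080 under both pseudocounts. It turned the median of the thioredoxin-linked genes to 0.044 with 0.1 and 0.042 with 1 added, and that of the superoxide and hydrogen peroxide enzymes to 0.11 under both, which plain totals turned to 0.062 and size factors to 0.014. These shifts follow the scaling, since the median of all genes moved alike. The 5 set differences between pairs of genes kept their direction under the 2 alternatives run for them, the deposited RPKM with 0.1 added and a prior count of 5. Library scaling cancels in such differences, so the deposited RPKM could hardly have changed them. TXN2 minus TXN and PRDX3 minus PRDX1 had intervals that held 0 throughout. At 20 reads, 1 gene (PRDX1) had enough counts for an RNA ratio and for footprints over RNA, and at 1 read 8 genes did. None of the peroxiredoxin and thioredoxin system genes that passed the filter was 2-fold apart under the settings run, and with TMM scaling at 100 reads none of the 9 was 1.5-fold apart. RNA counts allowed no RNA ratio for any of the 10 genes at 100 reads, and the cause of the low counts was not tested.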
